A study of Homo sapiens with 12 samples.

Results

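The elements described are 6 models of the 5′ end of primate L1, followed strand by strand: L1PBa_5end, L1PBa1_5end, L1PBb_5end, L1PA15-16_5end, L1P3b_5end and L1P4a_5end. The rule lists them by element name, and they make up 6 of the 45 repeat elements in the deposited tables, or 12 of 90 strand features. All 12 member features passed the filter on low counts, as did 70 of the 90 features in all. The cells were THP-1, an established acute myeloid leukaemia line, transduced either with SETDB1 sgRNA 9 or with a non-targeting sgRNA, put in 1 µg/ml puromycin after 48 h, and harvested on day 4 or day 7. There were 3 libraries in each of the 4 groups, made from 100 ng of total RNA with a kit that keeps the strand. The design text also names a SETDB1 sgRNA 6, but every SETDB1 title names sgRNA 9, and the groups follow the titles. How Cas9 was supplied, whether the cells were pooled or cloned, and whether replicates were separate cultures are stated by none of the sources used here, so the p-values measure only how these samples vary, and that variation may be technical.

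L1 is the self-copying long interspersed element of mammalian genomes. A full-length copy opens with a 5′ region that holds its internal promoter, goes on with ORF1, which encodes an RNA-binding protein, and ORF2, which encodes an endonuclease and reverse transcriptase, and closes with a 3′ end; most genomic copies lack the 5′ part. The 5′ region of young human L1 also holds an antisense promoter, while the L1PB and older L1P lineages are fossil families that no longer jump. SETDB1 methylates histone H3 at lysine 9 and is brought to repeats by KRAB zinc finger proteins through KAP1, and with the HUSH complex it is known for silencing L1. The series asks whether repeats are transcribed on both strands once SETDB1 is depleted. Whether plus and minus follow the sense of the element or of the genome is stated by none of the sources used here, so they are called plus and minus only.

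The tables held between 27388 and 58916 counts per library, of which the 6 elements took between 421 and 1129 counts, or 1.26% to 1.97%. A single element, L1P1_orf2, took between 30.7% and 40.3%. SETDB1 itself and genes that mark THP-1 cells are not among the tabulated elements and were not analysed here. Levels are given as CPM, the counts scaled to a fixed table size, after scaling by edgeR's TMM method, so each is relative to the rest of the table. No source used here states the lengths of the models, so levels were not compared between elements. Related L1 models share sequence, and the counting could split reads between L1PBa, L1PBa1 and L1PBb. In RNA of a whole culture, more cells transcribing an element and more RNA per cell cannot be told apart.

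At day 4, 1 of the 12 member features rose in SETDB1 libraries and 0 fell, against 15.7% higher and 8.57% lower among the 70 features tested (edgeR quasi-likelihood test, adjusted p under 0.05). Of the 11 that missed the threshold, 0 had an unadjusted p under 0.05. At day 7, 3 of the 12 rose and 0 fell, against 30.0% higher and 25.7% lower among all features. Neither share of higher features stood above that of the table. The feature called at day 4 was the plus strand of L1PBa. Those called at day 7 were the plus strands of L1PBa and L1PBb and the minus strand of L1PBa1. With this scaling no member was called on both strands on either day. The median log2 fold change of the members was 0.11 at day 4 and 0.36 at day 7, beside 0.04 and 0.16 over all 70 features.

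**Figure D1:**
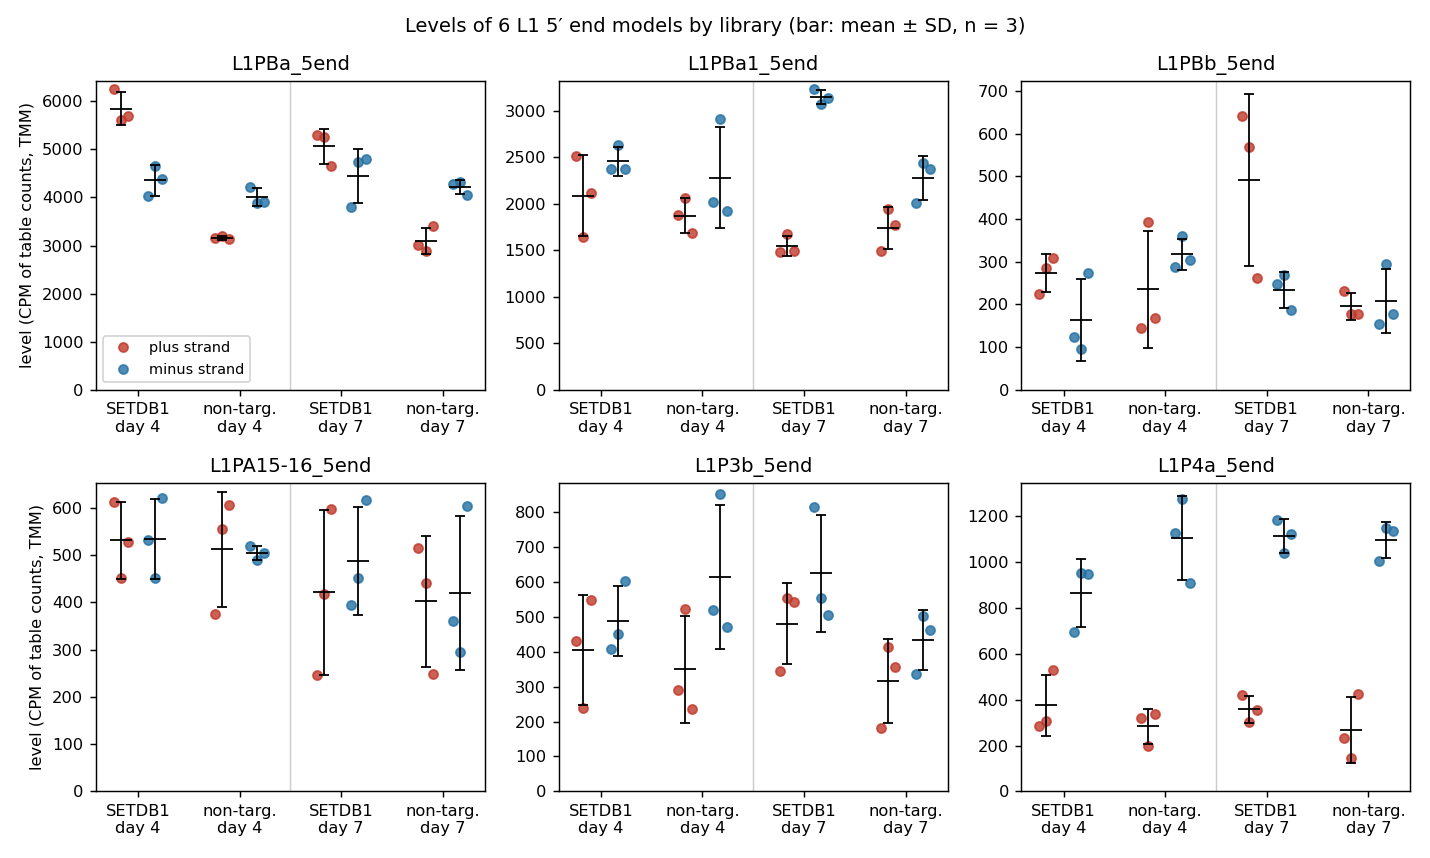
Level of each of the 6 L1 5′ end models in each library (CPM of table counts, TMM scaled, linear axis from 0), with the plus strand in red, the minus strand in blue and bars giving mean ± SD (n = 3). In the L1PBa panel the SETDB1 sgRNA 9 libraries lie between 4650.1 and 6252 CPM on the plus strand, above the non-targeting libraries at 2885 to 3405 CPM, while the minus strand overlaps.

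L1PBa_5end, the 5′ end model of one subfamily of the L1PB lineage, had the most counts behind its values. Its plus strand had 306, 236 and 312 counts in the SETDB1 sgRNA 9 libraries at day 4, against 109, 98 and 93 in the non-targeting ones. Scaled, these were 6252, 5609 and 5689 CPM in SETDB1 libraries and 3148, 3202 and 3133 CPM in non-targeting libraries. Every SETDB1 library lay above every non-targeting library. The log2 fold change was 0.89 ± 0.14 (SE), or 1.85-fold (edgeR adjusted p = 8.76e-06).

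At day 7 the L1PBa plus strand had 5305, 5255 and 4650.1 CPM in SETDB1 libraries, against 3017, 2885 and 3405 CPM in non-targeting libraries. The groups again did not overlap, and the log2 fold change was 0.71 ± 0.14 (SE), or 1.64-fold (edgeR adjusted p = 8.54e-05). Both calls held in all 20 alternative settings tried for each day, with log2 fold changes of 0.78 to 1.51 at day 4 and 0.49 to 1.32 at day 7. By level, the groups ran from SETDB1 sgRNA 9 at day 4 (5850.1 ± 350.5 CPM, SD) through SETDB1 sgRNA 9 at day 7 (5070 ± 364 CPM) and non-targeting at day 4 (3161 ± 36.6 CPM) to non-targeting at day 7 (3102 ± 270.3 CPM, n = 3 each). The non-targeting groups overlapped. The SETDB1 groups did not, but their difference in edgeR, -0.21 ± 0.13 (SE) for day 7 against day 4, missed the threshold (adjusted p = 0.253).

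The minus strand of the same model had 4025, 4659 and 4394 CPM in SETDB1 libraries at day 4, against 4217, 3889 and 3907 CPM in non-targeting libraries. At day 7 it had 3799.6, 4736 and 4799.5 CPM in SETDB1 libraries, against 4280.5, 4328 and 4044 CPM in non-targeting libraries. The groups overlapped on both days. The log2 fold changes were 0.12 ± 0.14 at day 4 (SE, edgeR adjusted p = 0.593) and 0.08 ± 0.14 at day 7 (adjusted p = 0.663), and the sign at day 7 turned with DESeq2 size factors (-0.01).

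L1PBa1_5end, the model of a closely named subfamily, differed in the strand that was called. Its minus strand had 131, 184 and 168 counts in SETDB1 libraries at day 7, against 78, 83 and 67 in non-targeting libraries. These were 3232, 3079 and 3137 CPM in SETDB1 libraries and 2011, 2444 and 2377 CPM in non-targeting libraries, with no overlap. The log2 fold change was 0.47 ± 0.16 (SE), or 1.39-fold (edgeR adjusted p = 0.0139).

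That call was less stable than those of L1PBa and held in 13 of 20 settings, all with the same sign. It was lost without non-targeting day 4 replicate 2 (0.35, edgeR adjusted p = 0.109), which is outside the contrast but enters the shared filter and scaling. Without that library 72 features were tested, and their median log2 fold change at day 7 was 0.05, against 0.16 in the main fit. The L1PBa1 minus call was also lost without SETDB1 day 7 replicate 2 (0.42, edgeR adjusted p = 0.099) and without non-targeting day 7 replicate 1 (0.38, edgeR adjusted p = 0.0915). With the 6 libraries of day 7 alone it was 0.25 (edgeR adjusted p = 0.164), with no filter 0.29 (adjusted p = 0.183), with DESeq2 size factors 0.38 (adjusted p = 0.0559) and in DESeq2 0.38 (adjusted p = 0.0515).

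At day 4 the L1PBa1 minus strand had 2370.1, 2638 and 2370.2 CPM in SETDB1 libraries, against 2022, 2908 and 1920 CPM in non-targeting libraries, and the groups overlapped (log2 fold change 0.11 ± 0.17 SE, edgeR adjusted p = 0.729). Its plus strand averaged 2089 ± 437 CPM in SETDB1 libraries and 1873 ± 187 CPM in non-targeting libraries at day 4 (SD, n = 3 each). At day 7 the plus strand averaged 1549 ± 108 CPM in SETDB1 libraries and 1737 ± 226 CPM in non-targeting libraries (SD, n = 3 each). Neither plus strand difference passed the edgeR test, at 0.16 ± 0.18 (SE, adjusted p = 0.563) at day 4 and -0.15 ± 0.19 (adjusted p = 0.523) at day 7.

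L1PBb_5end, the third L1PB model, was sparse. On its plus strand 26, 34 and 14 counts were found in SETDB1 libraries at day 7, against 9, 6 and 5 in non-targeting libraries. In CPM these were 641.5, 569.0 and 261 in SETDB1 libraries and 232, 177 and 177 in non-targeting libraries. The groups did not overlap, though SETDB1 replicate 3 lay close to the non-targeting ones. The log2 fold change was 1.27 ± 0.41 (SE), or 2.42-fold (edgeR adjusted p = 0.00925). It held in 19 of 20 settings and missed the threshold without SETDB1 day 7 replicate 2 (1.05, edgeR adjusted p = 0.0707). At day 4 the plus strand had 11, 12 and 17 counts in SETDB1 libraries and 5, 12 and 5 in non-targeting libraries, a log2 fold change of 0.24 ± 0.45 (SE, edgeR adjusted p = 0.811).

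On the minus strand L1PBb had 6, 4 and 15 counts in SETDB1 libraries at day 4, against 10, 11 and 9 in non-targeting libraries. In CPM these were 123, 95.1 and 273 in SETDB1 libraries and 289, 359 and 303 in non-targeting libraries, all SETDB1 libraries lying below. The log2 fold change of -0.88 ± 0.44 (SE) missed the threshold (edgeR adjusted p = 0.163) and passed it without SETDB1 day 4 replicate 3 (-1.50, edgeR adjusted p = 0.0493). At day 7 the minus strand averaged 234 ± 42.0 CPM in SETDB1 libraries and 209 ± 75.0 CPM in non-targeting libraries (SD, n = 3 each; edgeR adjusted p = 0.769). This model rested on 4 to 34 counts per library and strand, which left standard errors of 0.41 to 0.45 on its log2 fold changes.

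The other 3 elements, L1PA15-16_5end of an older L1PA branch and L1P3b_5end and L1P4a_5end of the older L1P group, gave 0 calls in 12 tests of strand and day in edgeR, with an unadjusted p under 0.05 in 0 of them, and 0 in DESeq2. L1PA15-16 averaged 531 ± 80.7 CPM in SETDB1 libraries and 512 ± 121 CPM in non-targeting libraries on the plus strand at day 4, and 421 ± 175 CPM in SETDB1 and 402 ± 138 CPM in non-targeting libraries at day 7 (SD, n = 3 each). Its minus strand averaged 534 ± 84.2 CPM in SETDB1 libraries and 505 ± 14.9 CPM in non-targeting libraries at day 4, and 488 ± 115 CPM in SETDB1 and 419 ± 162 CPM in non-targeting libraries at day 7. All 4 comparisons of this model overlapped, and its log2 fold changes lay between 0.06 and 0.27 with standard errors of 0.30 to 0.34.

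L1P3b was the one of these 3 whose groups separated. Its minus strand had 814, 552 and 504 CPM in SETDB1 libraries at day 7, against 335, 501 and 461 CPM in non-targeting libraries. The lowest SETDB1 library stood just above the highest non-targeting one, and the log2 fold change of 0.51 ± 0.30 (SE) missed the threshold (edgeR adjusted p = 0.156). Its plus strand had 345, 552 and 542 CPM in SETDB1 libraries at day 7, against 181, 412 and 355 CPM in non-targeting libraries, a log2 fold change of 0.66 ± 0.37 (SE, edgeR adjusted p = 0.124). At day 4 the values were 0.25 ± 0.38 on the plus strand and -0.31 ± 0.30 on the minus strand, and the groups overlapped on both.

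L1P4a was counted mostly on the minus strand. That strand averaged 864.5 ± 147 CPM in SETDB1 libraries and 1103 ± 184 CPM in non-targeting libraries at day 4, and 1114 ± 73.5 CPM in SETDB1 and 1096 ± 78.8 CPM in non-targeting libraries at day 7 (SD, n = 3 each). The plus strand averaged 375 ± 134 CPM in SETDB1 libraries and 284 ± 76.4 CPM in non-targeting libraries at day 4, and 358.5 ± 59.2 CPM in SETDB1 and 268 ± 143 CPM in non-targeting libraries at day 7. The 4 comparisons overlapped, and the edgeR log2 fold changes ran from -0.35 ± 0.21 (SE) for the minus strand at day 4 to 0.44 ± 0.40 for the plus strand at day 7.

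**Figure D2:**
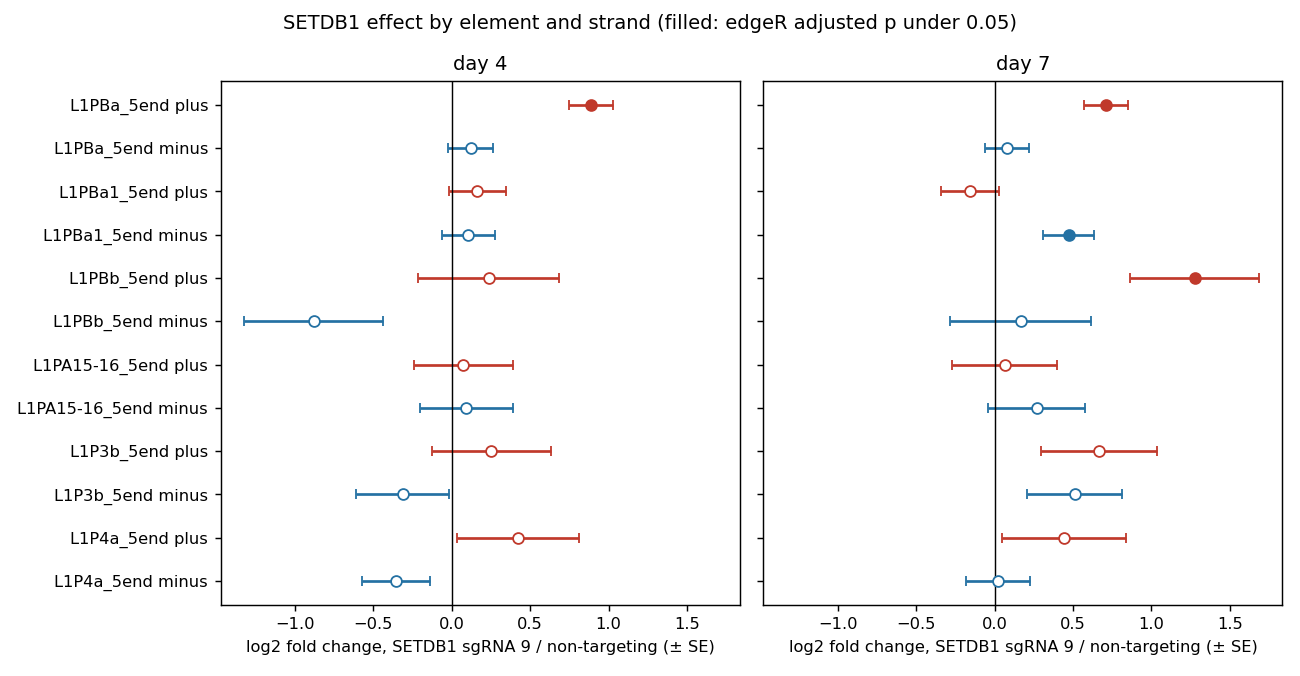
Log2 fold change of SETDB1 sgRNA 9 over non-targeting for each element and strand, with its SE, at day 4 (left) and day 7 (right). Red is the plus strand, blue the minus strand, and filled points passed the edgeR threshold: L1PBa plus at day 4, and L1PBa plus, L1PBb plus and L1PBa1 minus at day 7.

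Counting separation in place of the test, 2 of the 12 member features did not overlap at day 4, against 25.7% of all features, and 4 did not at day 7, against 55.7%. Those at day 4 were L1PBa plus, higher, and L1PBb minus, lower. At day 7 all 4 were higher: L1PBa plus, L1PBb plus, L1PBa1 minus and L1P3b minus. Over all 70 features, 8 were separated higher and 10 lower at day 4, and 22 higher and 17 lower at day 7. By strand, the median log2 fold change of the members was 0.24 on plus and -0.11 on minus at day 4, beside 0.13 and -0.13 over all features. At day 7 it was 0.55 on plus and 0.22 on minus, beside 0.26 and 0.02.

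Added together, the plus strands of the 6 elements held 9523 ± 908 CPM in SETDB1 libraries and 6415 ± 444 CPM in non-targeting libraries at day 4 (SD, n = 3 each). At day 7 they held 8369 ± 439 CPM in SETDB1 libraries and 6021 ± 356 CPM in non-targeting libraries. Leaving L1PBa out, the plus strands of the other 5 held 3673 ± 649 CPM in SETDB1 libraries and 3254 ± 409 CPM in non-targeting libraries at day 4, and 3299 ± 195 CPM in SETDB1 and 2919 ± 238 CPM in non-targeting libraries at day 7. Most of the difference in the summed plus strand was therefore counted on L1PBa. The summed minus strands held 8869 ± 621 CPM in SETDB1 libraries and 8827 ± 884 CPM in non-targeting libraries at day 4, and 10054 ± 352 CPM in SETDB1 and 8651 ± 448 CPM in non-targeting libraries at day 7.

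The balance of the strands within a library does not depend on scaling between libraries. Of the L1PBa counts, 39.2%, 45.4% and 43.6% were on the minus strand in SETDB1 libraries at day 4, against 57.3%, 54.8% and 55.5% in non-targeting libraries. At day 7 they were 41.7%, 47.4% and 50.8% in SETDB1 libraries, against 58.7%, 60.0% and 54.3% in non-targeting libraries. On both days every SETDB1 library lay below every non-targeting one. The log2 odds of the minus strand changed by -0.77 ± 0.19 at day 4 (SE, edgeR with a block for the library, adjusted p = 0.00134) and by -0.63 ± 0.19 at day 7 (adjusted p = 0.00585). Each call held in 14 of 15 settings. Both missed the threshold in limma with a block for the replicate number (limma adjusted p = 0.0604 at day 4 and 0.062 at day 7). The median change over the 39 elements tested was -0.25 at day 4 and -0.42 at day 7, so the median element also shifted towards plus, and the L1PBa value at day 7 lay about as far from that median as its SE.

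L1PBa1 showed the opposite sign at day 7. Its minus share was 68.6%, 64.8% and 67.7% in SETDB1 libraries, against 57.4%, 55.7% and 57.3% in non-targeting libraries, every SETDB1 library above. The change in log2 odds was 0.62 ± 0.24 (SE, edgeR adjusted p = 0.0356). It was lost without SETDB1 day 7 replicate 1 (0.58, edgeR adjusted p = 0.0688) or replicate 3 (0.59, adjusted p = 0.0623). It was lost too without non-targeting day 7 replicate 1 (0.64, edgeR adjusted p = 0.0848), replicate 2 (0.59, adjusted p = 0.112) or replicate 3 (0.64, adjusted p = 0.0527). At day 4 the L1PBa1 share averaged 54.3% ± 6.69 in SETDB1 libraries and 54.6% ± 3.53 in non-targeting libraries (SD, n = 3 each; log2 odds -0.04 ± 0.24 SE, edgeR adjusted p = 0.949).

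At day 4 the share fell in 1 of the 6 members, against 10.3% lower among the 39 elements tested, and rose in 0 of them, against 2.56% higher. At day 7 it fell in 1 and rose in 1, against 25.6% lower and 7.69% higher. Among the other 4, L1PBb had a minus share of 35.7% ± 10.9 in SETDB1 libraries and 59.6% ± 10.3 in non-targeting libraries at day 4, and 33.8% ± 7.12 in SETDB1 and 50.8% ± 11.3 in non-targeting libraries at day 7 (SD, n = 3 each). Neither difference passed (log2 odds -1.13 ± 0.62 SE, edgeR adjusted p = 0.200, and -1.09 ± 0.62, adjusted p = 0.155). L1P4a averaged 70.2% ± 5.67 in SETDB1 libraries and 79.2% ± 6.93 in non-targeting libraries at day 4, and 75.8% ± 1.83 in SETDB1 and 80.9% ± 7.96 in non-targeting libraries at day 7, and neither difference passed (log2 odds -0.77 ± 0.45 SE, edgeR adjusted p = 0.209, and -0.42 ± 0.45, adjusted p = 0.521). L1P3b and L1PA15-16 had mean shares between 50.1% and 64.3% in the 4 groups.

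**Figure D3:**
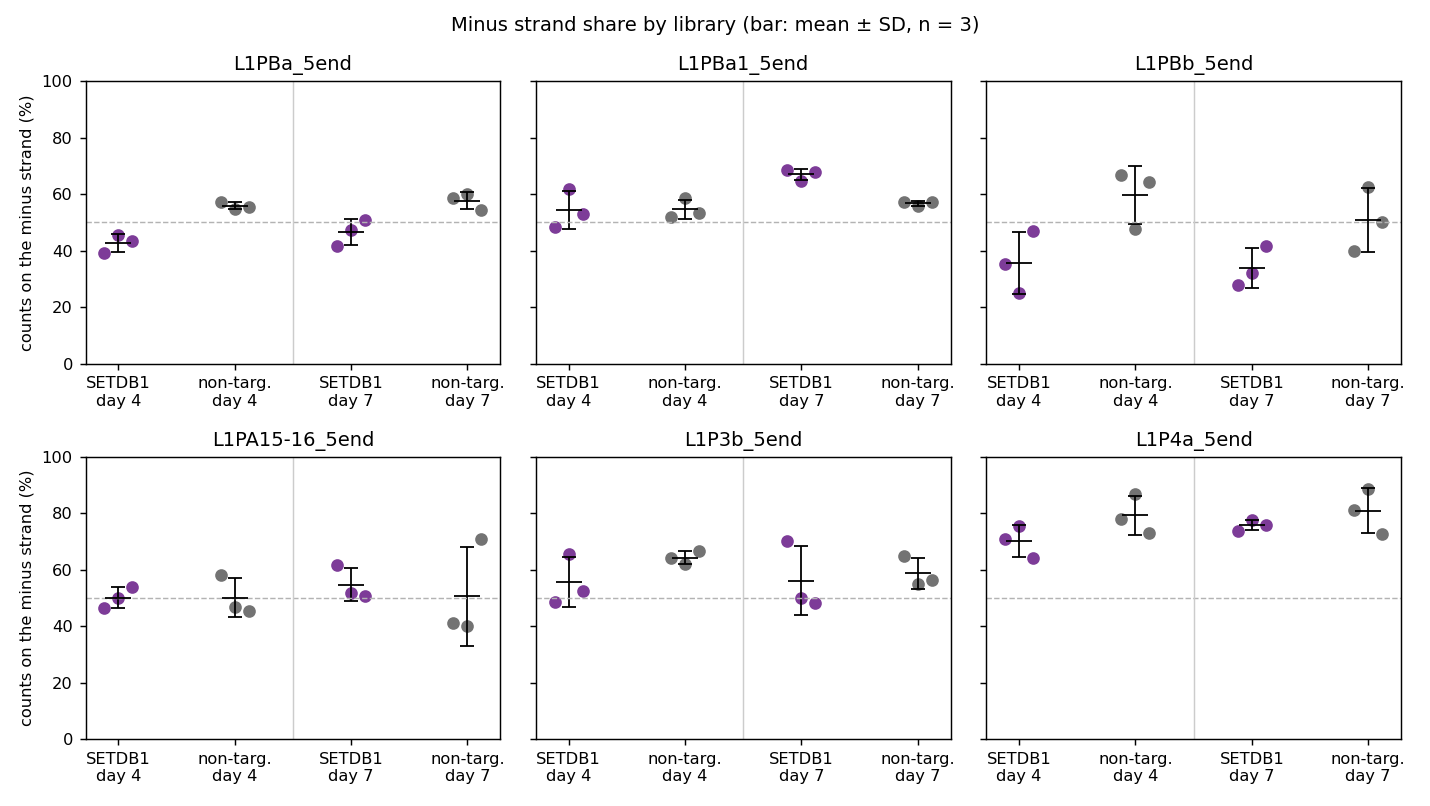
Percent of each element's counts on the minus strand in each library, SETDB1 sgRNA 9 in purple and non-targeting in grey, with mean ± SD (n = 3) and a dashed line at 50%. For L1PBa, SETDB1 libraries lie between 39.2% and 50.8%, below the non-targeting ones at 54.3% to 60.0%, and for L1PBa1 at day 7 SETDB1 libraries lie between 64.8% and 68.6%, above the non-targeting ones at 55.7% to 57.4%.

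L1PBa and L1PBa1 were set against each other within each library, as a description, since the pair was picked once the values were known. The log2 ratio of minus to plus counts of L1PBa1 less that of L1PBa was 0.55, 0.95 and 0.54 in SETDB1 libraries at day 4, against -0.31, 0.22 and -0.13 in non-targeting libraries. At day 7 it was 1.60, 1.03 and 1.02 in SETDB1 libraries, against -0.08, -0.25 and 0.17 in non-targeting libraries. Every SETDB1 library lay above every non-targeting library of its day. The means differed by 0.75 at day 4 and by 1.27 at day 7, and no test is given, as the same values chose the pair.

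The SETDB1 effect was then compared between days. In edgeR 0 of the 12 member features differed, against 5.71% of all features, with 0 at an unadjusted p under 0.05 and 0 in DESeq2. The difference, day 7 minus day 4, was -0.18 ± 0.20 for L1PBa plus (SE, edgeR adjusted p = 0.598), 0.37 ± 0.24 for L1PBa1 minus (adjusted p = 0.302) and 1.04 ± 0.63 for L1PBb plus (adjusted p = 0.284). So the L1PBa1 and L1PBb calls made at day 7 and not at day 4 were not shown to differ between days. The strand balance gave 0 of 6 against 5.13% in edgeR, with 1 at an unadjusted p under 0.05, L1PBa1 at 0.67 ± 0.33 (SE, edgeR adjusted p = 0.239), in a test added after the data were seen.

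Day 7 against day 4 within the SETDB1 sgRNA 9 libraries gave 0 of 12 calls in edgeR, against 12.9% of all features, with 3 at an unadjusted p under 0.05 and 1 in DESeq2, where 7 of the 12 had no adjusted p. The 3 at an unadjusted p under 0.05 were L1PBa1 plus (-0.43 ± 0.17 SE, edgeR adjusted p = 0.0922, and -0.49 in DESeq2, adjusted p = 0.0384), L1PBa1 minus (0.36 ± 0.15, edgeR adjusted p = 0.112) and L1PBb plus (0.81 ± 0.35, edgeR adjusted p = 0.112). L1PBa1 plus passed in edgeR without SETDB1 day 4 replicate 2 (-0.57, adjusted p = 0.0245) or non-targeting day 4 replicate 2 (-0.60, adjusted p = 0.0125). L1PBb plus passed without SETDB1 day 7 replicate 3 (1.12, edgeR adjusted p = 0.0178). The days did not overlap in 3 of the 12 member features, L1PBa1 minus and L1P4a minus, higher at day 7, and L1PBa plus, lower at day 7, against 34.3% of all features. In the non-targeting libraries 0 of 12 were called in edgeR, against 5.71%, with 0 at an unadjusted p under 0.05 and 0 in DESeq2, and the days overlapped in all 12, against 18.6% of all features that did not.

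Other parts of L1 were described by counts only. Of the 11 tested strand features of the other 7 L1 5′ end models (L1M2c, L1M3e, L1M4b, L1MDb, L1P1, L1PA10 and L1PA12), 3 rose and 0 fell at day 4 (median log2 fold change 0.13), and 2 rose and 1 fell at day 7 (median 0.31). By strand, the rises at day 4 were 3 of 6 features on minus and 0 of 5 on plus. At day 7 they were 1 of 6 on minus and 1 of 5 on plus. At day 4, every SETDB1 library lay above every non-targeting one in 0 of the 11. Of the 12 features of the 6 L1 3′ end and ORF2 models, 1 rose and 0 fell at day 4 (median -0.07), and 2 rose and 6 fell at day 7 (median -0.28). Over all features, 15.7% were higher and 8.57% lower at day 4, and 30.0% and 25.7% at day 7. The members had 0 lower calls on either day, beside 6 lower 3′ and ORF2 strand features at day 7. The difference between the lists was not tested. Many member features were sparse, and whether this limited lower calls was not tested. At day 7 the log2 fold change was above 0 in 11 of the 12 member features, with a lowest value of -0.15, and in 43 of all 70. Without library scaling, 1 of all 70 features was lower at day 7. Across the 12 libraries, the features whose centred log2 CPM lay nearest to the members' summed plus strand were the plus strands of L1P1_5end (root mean square difference 0.17), L1PA10_5end (0.18) and the endogenous retrovirus HERV3 (0.19), where the median of 58 other features was 0.46. Nearness is not a shared call. At day 4 the plus features of the other L1 5′ end models had log2 fold changes of -0.07 to 0.30, with 0 of 5 called. Nearest to the summed minus strand were the plus strands of the MaLR long terminal repeats THE1C (0.12), MSTB1 (0.17) and MSTB2 (0.17), beside a median of 0.36.

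**Figure D4:**
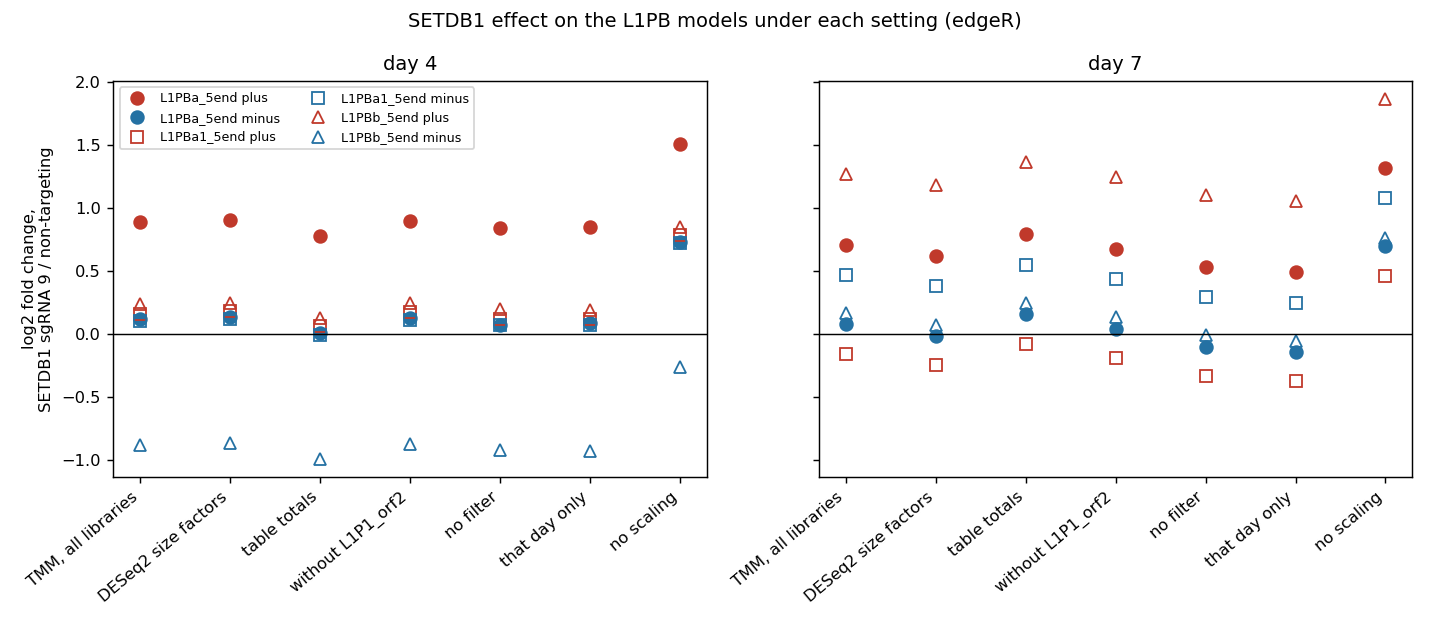
Log2 fold change of SETDB1 sgRNA 9 over non-targeting for the 3 L1PB models under each setting (edgeR), day 4 left and day 7 right, red for plus and blue for minus. L1PBa plus (filled red) stays between 0.49 and 1.51 in every setting drawn, and without scaling every feature drawn moves up.

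Without scaling between libraries, the median of all 70 features moved to 0.65 at day 4 and 0.76 at day 7 on the log2 scale, as the SETDB1 tables held more counts on average. Then 5 of the 12 member features were higher at day 4, against 50.0% of all features (35 higher and 0 lower). At day 7, 8 of the 12 were higher, against 54.3% of all features in either direction (37 higher and 1 lower). These calls included both strands of L1PBa on both days, both strands of L1PBa1 at day 4 and both strands of L1P3b at day 7 (edgeR adjusted p under 0.05). L1PBa plus was at 1.51 at day 4 and 1.32 at day 7, above those medians, and L1PBa minus was at 0.73 and 0.70, near them. L1PBb minus at day 4 stayed below zero at -0.26.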

How the data were processed

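Stranded total RNA sequencing of 12 THP-1 samples was deposited as whole-number counts for the plus and the minus strand of each repeat element, 1 table a day. CASAVA 1.8, BWA and HTSeq are named, without roles, per the submitters' processing notes. No source used here gives the genome build, the repeat models or the handling of reads that map to several places. Columns were tied to samples through the sample description in the header. The 6 elements and the lists beside them were chosen with earlier results of these data known.

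A feature is 1 strand of 1 element. edgeR 4.0.16 (R 4.3.3) filtered features with filterByExpr (minimum count 10, minimum total 15), scaled table totals by TMM and fitted all 12 libraries in one quasi-likelihood model of 4 groups, with 8 residual degrees of freedom and an estimated biological coefficient of variation of 11.4%. Benjamini-Hochberg adjustment ran over 70 features, with a threshold of 0.05, and standard errors came from the F statistic. Minus strand shares were fitted in edgeR on 24 columns with a block for the library, over 39 elements. Log2 ratios took a prior count of 0.5. The closest features were ranked on log2 CPM with a prior count of 2. The text names the 6 elements on both strands, the 3 features nearest to each strand sum, L1P1_orf2, and the other L1 5′ end models that make up their list. Alternatives were DESeq2 1.42.0, its size factors, table totals, no scaling, no filter, L1P1_orf2 left out, each day alone, limma 3.58.1 for shares, a replicate block, and leaving out each library. Replicate pairs differed beyond sampling noise (chi-square over degrees of freedom 1.75 to 15.4), so all were kept. The fits were run on simulated counts in which some features of a single group were changed by known folds, equally up and down. That setting is simpler than these data. No source used here gives the total library depth.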

Additional observations from a re-analysis of the deposited data

How the results depend on the processing

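The number of member features called moved with no library scaling to 5 at day 4 and 8 at day 7. At day 7 it fell from 3 to 2 with DESeq2 size factors, DESeq2, no filter or that day only, each losing L1PBa1 minus. With DESeq2 it moved to 1 for day 7 against day 4 in the SETDB1 libraries. For the day 7 strand share it moved to 1 in limma with the replicate block. Leaving out 1 library at a time gave 1 to 2 calls at day 4 (2 without SETDB1 day 4 replicate 3), 1 to 3 at day 7 (1 without SETDB1 day 7 replicate 2), 0 to 1 for time in the SETDB1 libraries and 1 to 2 for the day 7 strand share. Signs turned only for features that were not called. At day 4 they turned without scaling for L1P3b minus (0.31) and L1P4a minus (0.26), and with table totals for L1PA15-16 plus (-0.033) and minus (-0.014) and L1PBa1 minus (-0.0050). At day 7, with DESeq2 size factors, DESeq2, no filter and that day only in turn, L1P4a minus gave -0.068, -0.068, -0.15 and -0.20 (and -0.012 without L1P1_orf2), L1PA15-16 plus -0.028, -0.030, -0.11 and -0.15, and L1PBa minus -0.012, -0.0091, -0.10 and -0.14. L1PBb minus gave -0.0044 with no filter and -0.051 with that day only, and L1PBa1 plus 0.46 without scaling. The day difference of L1PBa plus was 0.010 with table totals. With libraries left out in turn, signs also turned at day 4 for L1P3b plus (-0.036 to 0.64), L1PA15-16 plus (-0.18 to 0.17) and minus (-0.034 to 0.19), L1PBa1 minus (-0.036 to 0.32) and L1PBb plus (-0.10 to 0.80). At day 7 they did for L1P4a minus (-0.10 to 0.070), L1PA15-16 plus (-0.26 to 0.29), L1PBa minus (-0.050 to 0.18) and L1PBb minus (-0.047 to 0.51). Log2 odds of the strand share turned sign at day 4 for L1PA15-16 (-0.12 to 0.24, and -0.00039 in limma with or without the replicate block) and L1PBa1 (-0.23 to 0.12), and at day 7 for L1P3b (-0.52 to 0.029) and L1PA15-16 (-0.10 to 0.73). The cause was not tested. Same-numbered libraries did not deviate together (correlations of -0.31 to 0.28 over the 4 contrasts), so the replicate block pairs a number only. It changed no expression call of a member, and in limma it lost the L1PBa share at day 4 (-0.76, adjusted p = 0.0604) and day 7 (-0.64, adjusted p = 0.062) and gained that of L1PBb at day 4 (-1.36, adjusted p = 0.0378). Over all features, 11 higher and 6 lower calls at day 4 became 8 and 9 with table totals and 35 and 0 without scaling, and 21 higher and 18 lower at day 7 became 14 and 19 in DESeq2, 11 and 18 with no filter, 11 and 20 with that day only and 37 and 1 without scaling. Features with under 35 counts a library (both strands of L1PBb, L1PA15-16 and L1P3b, and L1P4a plus) set the depth limit.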
